A study of Mus musculus with 12 samples.

Results

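The Hox genes encode homeodomain transcription factors and lie in 4 clusters in the mouse genome. They are described here in embryonic forelimbs and in cultured bone marrow cells, each from wild-type animals and from conditional knockouts of Impdh2. The knockout was aimed at different cells in the forelimbs and in the cultures. Members were chosen by name: every protein-coding gene whose symbol is Hox, a cluster letter from a to d and a paralog number. This gave 39 genes among 51826 gene identifiers in the forelimb counts and 55401 in the culture counts. In the GENCODE M21 annotation of GRCm38, HoxA holds 11 members on chromosome 6 (52155590 to 52260880, minus strand) and HoxB 10 on chromosome 11 (96194316 to 96368256, plus strand). HoxC holds 9 on chromosome 15 (102921103 to 103036852, plus strand) and HoxD 9 on chromosome 2 (74668310 to 74765142, plus strand). The rule itself used no measured value, but it was set with earlier results of these data known.

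Within a cluster the genes are arranged in the order in which they are used along the body, with low paralog numbers acting towards the head and high numbers towards the tail. The limb bud uses the 5′ genes of HoxA and HoxD, those with high paralog numbers, in successive phases that pattern the upper arm, then the forearm, then the hand. Hoxa13 and Hoxd13 are required for digits, the group 11 genes for the forearm, and the group 9 and 10 genes for the upper arm, as is known from mouse mutants. HoxB genes of low number act in the trunk and in early forelimb positioning, and HoxC genes of high number are known mainly from the hindlimb and the trunk. In blood, HoxA and HoxB genes are expressed in stem and progenitor cells, and HoxD genes are mostly silent.

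RNA sequencing gave 12 libraries, 2 in each of 6 groups. Forelimbs were taken at stage E12.5 from wild-type (WT) embryos and from embryos lacking Impdh2 in limb mesenchymal progenitors (Prx-cKO). Its product catalyses a committed step on the way to guanine nucleotides. A Prx-driven Cre acts in limb mesenchyme, so the muscle precursors, blood, vessels and surface ectoderm of these forelimbs are not its main targets. The cultures were grown from marrow of WT mice or of mice lacking Impdh2 in the myeloid lineage (LysM-cKO), with L929 supernatant as a source of M-CSF equivalent to 20 ng/ml for 3 days and then, per the protocol, with 40 ng/ml RANKL, the cytokine that induces osteoclasts. The culture samples are named R40D3 or R0D3, names that the labels do not spell out, and all 8 carry the same treatment label. Ages of the marrow donors, strains and the number of embryos in a library were not given in the labels. Nothing in the labels says whether 2 libraries of a group came from separate animals, so p-values measure only the spread between these libraries, and an exact permutation test of 2 against 2 cannot go below 0.333.

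Total counts ran from 28892215 to 69466572 in the forelimb libraries and from 16009146 to 19221865 in the cultures, and replicates of all 6 groups differed by more than counting noise. Impdh2 measured 260 and 272 CPM (counts per 1000000 counts of the scaled library) in WT forelimbs against 170 and 199 CPM in Prx-cKO forelimbs, or 69.3% of the WT mean in the bulk tissue (log2 fold change −0.53, edgeR adjusted p = 0.443). In the cultures Impdh2 ran from 22.3 to 28.2 CPM in the 4 WT libraries and from 7.03 to 8.38 CPM in the 4 LysM-cKO libraries, a fall that passed edgeR's test at R40D3 (adjusted p = 0.0386) and at R0D3 (adjusted p = 0.0323). The forelimb libraries held limb mesenchyme markers at a summed 1145 to 1682 CPM, among them Tbx5, which marks the forelimb. The hindlimb markers Tbx4 and Pitx1 summed to 12.0 to 18.3 CPM, and 6 spinal cord markers to 0.73 to 2.33 CPM. In the cultures 11 osteoclast markers summed to 325 to 471 CPM in R0D3 and to 13272 to 38999 CPM in R40D3, so they were abundant in R40D3 only.

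The bases just upstream of the start are shown for 5 genes on which the results turn: the members with the lowest ratio to WT in HoxD and a strongly expressed HoxA member, followed by a HoxB member seen in both tissues and the HoxB member with the largest forelimb difference among those above 1 CPM. Sequences are the 250 bases before the RefSeq start on GRCm38.p6, 5′ to 3′ on the gene's strand. Capitals mark matches on either strand to TATAAA (the letters of a TATA box), CCAAT (the letters bound by NF-Y), GGGCGG (the letters bound by Sp factors), CACGTG (the letters of an E-box), TGATNNAT (letters that Pbx and Hox proteins bind together) and TAATTA (the letters of a homeodomain site), and overlapping matches form 1 run of capitals.
Hoxd13 (chr2:74667975-74668224, plus strand): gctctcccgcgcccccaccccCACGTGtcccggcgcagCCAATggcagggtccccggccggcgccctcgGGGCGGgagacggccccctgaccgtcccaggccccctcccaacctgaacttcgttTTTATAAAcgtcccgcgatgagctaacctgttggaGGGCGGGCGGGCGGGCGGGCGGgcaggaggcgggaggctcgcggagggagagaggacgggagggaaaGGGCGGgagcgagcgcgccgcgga
Hoxd10 (chr2:74691641-74691890, plus strand): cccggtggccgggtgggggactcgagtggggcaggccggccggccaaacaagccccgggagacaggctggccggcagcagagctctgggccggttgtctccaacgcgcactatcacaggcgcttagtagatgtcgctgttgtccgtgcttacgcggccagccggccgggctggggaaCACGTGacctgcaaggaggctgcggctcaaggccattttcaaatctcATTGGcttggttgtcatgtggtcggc
Hoxa10, upstream start (chr6:52240855-52241104, minus strand): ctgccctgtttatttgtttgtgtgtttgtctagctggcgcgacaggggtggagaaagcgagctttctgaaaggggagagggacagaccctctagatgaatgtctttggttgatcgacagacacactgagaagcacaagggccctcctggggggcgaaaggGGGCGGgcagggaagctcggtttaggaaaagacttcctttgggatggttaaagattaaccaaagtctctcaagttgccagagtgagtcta
Hoxb4 (chr11:96318017-96318266, plus strand): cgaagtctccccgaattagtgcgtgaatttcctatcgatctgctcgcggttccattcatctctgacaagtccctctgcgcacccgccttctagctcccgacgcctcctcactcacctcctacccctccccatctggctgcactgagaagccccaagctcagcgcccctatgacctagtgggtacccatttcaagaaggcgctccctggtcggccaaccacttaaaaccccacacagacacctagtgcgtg
Hoxb8 (chr11:96281655-96281904, plus strand): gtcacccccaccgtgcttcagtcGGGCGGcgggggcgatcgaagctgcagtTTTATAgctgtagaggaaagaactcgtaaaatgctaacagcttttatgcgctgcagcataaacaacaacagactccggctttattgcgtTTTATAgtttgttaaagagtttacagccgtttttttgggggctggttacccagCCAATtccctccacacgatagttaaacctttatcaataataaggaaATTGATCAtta

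The RefSeq promoter table held 22 of the 39 members with 24 starts. CCAAT was found upstream of 14 of these 22 genes and in 33.9% of all 32851 promoters of the table. GGGCGG was found for 10 of 22 and in 32.7% of all. TATAAA was found for 4 of 22 and in 12.4% of all, and CACGTG for 4 of 22 (Hoxd1, Hoxd10, Hoxd11 and Hoxd13) and in 6.02% of all. TGATNNAT was found for 4 of 22 and in 7.68% of all, and TAATTA for 1 of 22 (Hoxd11) and in 4.84% of all. These counts are per gene, with a match at any start counted, while the shares of all are per promoter. Per start, TAATTA was found for 2 of 24, and the other counts stayed the same out of 24. The Hoxb4 stretch held none of the 6. A further Hoxa10 start downstream (chr6:52234940-52235189), not printed here, held the TATAAA and CCAAT matches for which Hoxa10 is counted. Median GC content was 58.6% over the 24 Hox starts and 52.4% over all promoters. These matches describe letters and were not tested as binding sites.

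In the forelimb, the question was which members differ between Prx-cKO and WT, by cluster and paralog number. No Hox gene passed the test, and neither did any other gene: edgeR's quasi-likelihood test called 0 of 19987 genes (0%) at an adjusted p under 0.05, and 2095 (10.5%) had an unadjusted p under 0.05. The directions followed position. All 9 members numbered 9 to 13 in HoxA and HoxD had lower levels in Prx-cKO, with a median log2 fold change of −0.72. Over all clusters, 14 of the 15 measured members numbered 9 to 13 were lower, with a median of −0.60. Of the 23 members numbered 1 to 8, 19 had higher levels, with a median of 0.52. All 9 measured HoxB genes were higher, with a median of 0.90. The median over all 19987 genes was −0.03, and 52.8% of them were lower. Of the 39 members, 38 passed the filter on low counts, and Hoxb13 had no count in any forelimb library. Among the 38, 7 had an unadjusted p under 0.05, 5 of them lower (4.61% of all genes) and 2 higher (5.87% of all genes).

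**Figure D1:**
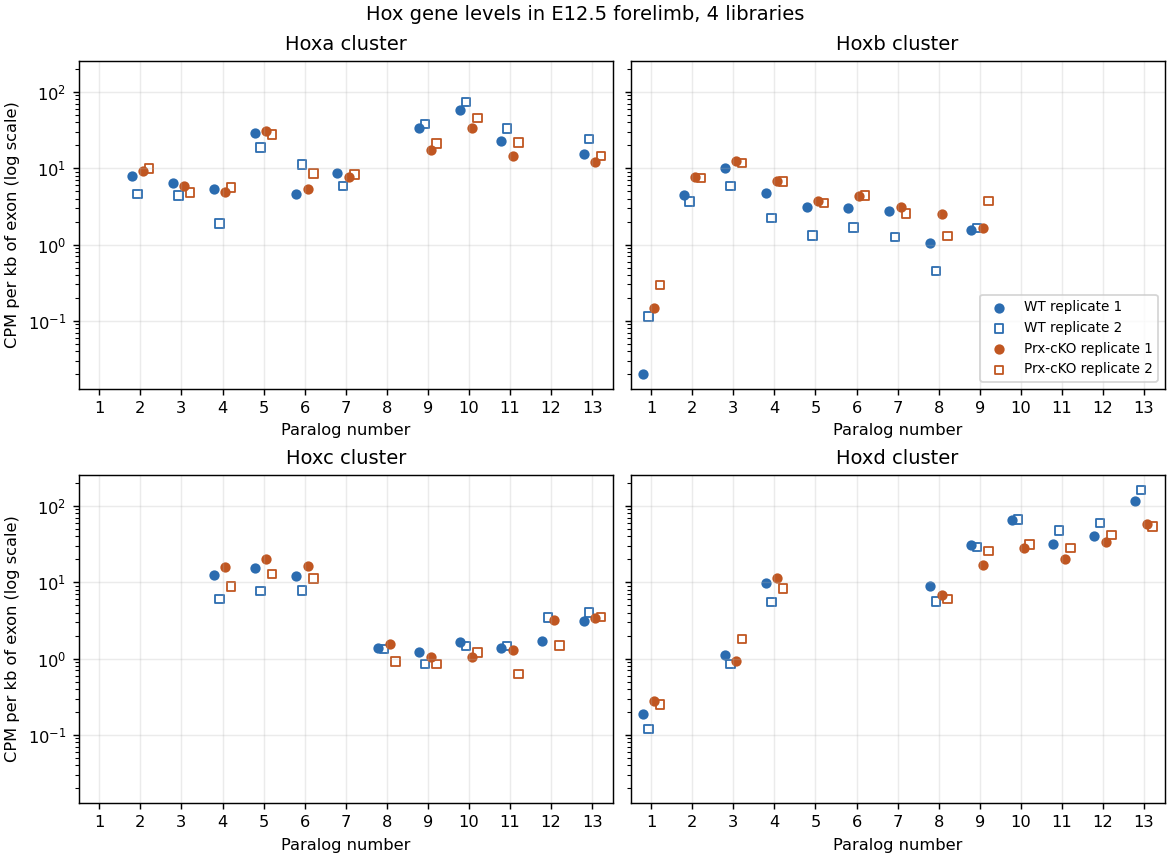
Level of Hox genes in the 4 forelimb libraries, in CPM per kilobase of exon on a log scale, by paralog number, with 1 panel per cluster, circles for replicate 1 and squares for replicate 2. Hoxb13, at 0 in all libraries, is not drawn; the WT points of Hoxd10 and Hoxd13 lie above both Prx-cKO points, and the Prx-cKO points of Hoxb2 lie above both WT points.

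Per kilobase of exon, the strongest member in WT forelimbs was Hoxd13, at a mean of 139 CPM per kb. It was followed by Hoxa10 at 66.2, Hoxd10 at 65.7, Hoxd12 at 49.9, Hoxd11 at 39.9 and Hoxa9 at 35.8 CPM per kb. In this order the WT libraries of Hoxa10 and Hoxd10 overlapped, as did those of Hoxd12 and Hoxd11 and those of Hoxd11 and Hoxa9. The strongest member numbered 1 to 8 was Hoxa5 at 24.0 CPM per kb, and the weakest with counts were Hoxd1 at 0.155 and Hoxb1 at 0.0672 CPM per kb. In HoxB the level per kb was highest for Hoxb3, with 8.03 CPM per kb, and HoxC genes numbered 8 to 13 stayed between 1.04 and 3.60 CPM per kb. In Prx-cKO Hoxd13 still led, at 56.0 CPM per kb, followed by Hoxa10 at 39.2 and Hoxd12 at 37.8.

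In HoxD, Hoxd13 and Hoxd10 gave the largest differences. Hoxd13, needed for digit formation, stood at 291 and 401 CPM in WT replicates 1 and 2 and at 144 and 134 CPM in Prx-cKO replicates 1 and 2. Both Prx-cKO libraries were below both WT libraries, at 40.2% of the WT mean (346 ± 78.0 CPM against 139 ± 7.62 CPM, SD, n = 2). The log2 fold change was −1.32 with a standard error (SE) of 0.20, and edgeR's adjusted p was 0.332. Hoxd10, which acts with its neighbours in the upper arm and forearm, was at 118 and 121 CPM (WT) and 50.4 and 56.5 CPM (Prx-cKO). The groups did not overlap and were tight, with the smallest p among the members (log2 fold change −1.16, SE 0.15, edgeR adjusted p = 0.320). Gm28309 shares 5.73% of Hoxd10's exonic bases and 10.8% of Hoxd11's on the same strand, so reads there cannot be told apart. Hoxd11, a forearm gene, measured 135 and 201 CPM in WT against 85.7 and 118 CPM in Prx-cKO. Here the groups were separate but the WT libraries differed more from each other (log2 fold change −0.72, SE 0.27, edgeR adjusted p = 0.473). Hoxd9 (64.2 ± 2.61 CPM in WT, 45.6 ± 13.6 in Prx-cKO, SD, n = 2) did not overlap, while Hoxd12 did: its lower WT library, at 102 CPM, lay below the higher Prx-cKO library, at 106 CPM.

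The 4 HoxA genes numbered 9 to 13 were also lower without overlap. Hoxa9 was at 186 and 213 CPM (WT) and 96.8 and 117 CPM (Prx-cKO) (log2 fold change −0.90, SE 0.17, edgeR adjusted p = 0.367). Hoxa10 measured 191 and 242 CPM in WT against 109 and 148 CPM in Prx-cKO (−0.75, SE 0.22, edgeR adjusted p = 0.442). These are the upper arm genes of HoxA, and in both every Prx-cKO value was below every WT value. Hoxa11, the forearm gene of the cluster, was at 52.4 and 75.5 CPM (WT) and 32.7 and 49.8 CPM (Prx-cKO). Hoxa13, the hand gene, measured 38.5 and 60.1 CPM in WT against 29.5 and 35.6 CPM in Prx-cKO. Their log2 fold changes were −0.63 (SE 0.29) and −0.60 (SE 0.26), with edgeR adjusted p of 0.517 and 0.508. Of Hoxa11's exonic bases, 35.0% overlap the antisense RNA Hoxa11os. The use of strand in counting was not given, so reads in this overlap cannot be told apart.

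Below paralog 9 the HoxA and HoxD members had mixed signs. Of the 11 HoxA and HoxD members numbered 1 to 8, 8 were higher and 3 lower (Hoxa3, Hoxa6 and Hoxd8), with a median of 0.28. None of the 11 had an unadjusted p under 0.05 in edgeR, and 2, Hoxa2 and Hoxd1, were higher without overlap. Hoxa7, the next HoxA gene after Hoxa9, was at 24.9 and 16.9 CPM (WT) and 21.8 and 23.8 CPM (Prx-cKO), so the groups overlapped. Across the clusters, 10 of the 38 measured members were below WT in both Prx-cKO libraries (21% of all genes) and 9 were above it (22.2% of all genes). Counts of this size lie near the background. By position, all 10 lower ones are numbered 9 to 13 and all 9 higher ones 1 to 8.

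**Figure D2:**
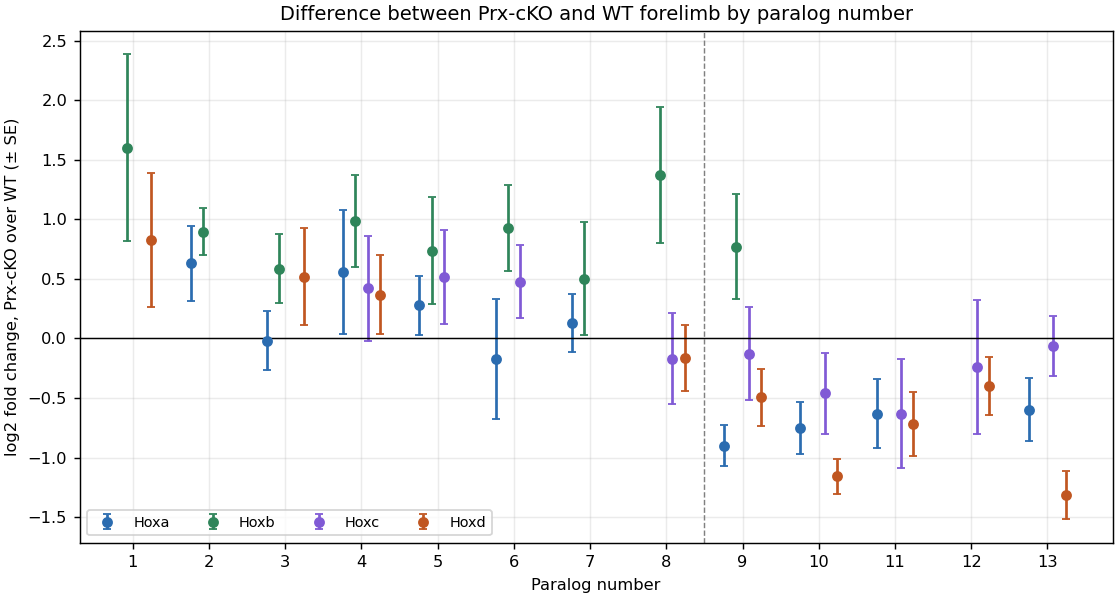
Log2 fold change of Prx-cKO over WT for measured Hox genes, by paralog number and coloured by cluster, with bars of 1 SE and a dashed line between paralogs 8 and 9. HoxA and HoxD points right of the line lie between −0.40 and −1.32, all 9 HoxB points lie above 0, and HoxC points lie between −0.63 and 0.52.

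HoxB genes were higher in Prx-cKO from Hoxb1 to Hoxb9. Hoxb2, a hindbrain and trunk gene, measured 15.5 and 12.8 CPM in WT against 26.6 and 26.0 CPM in Prx-cKO. The groups were well apart, with 186% of the WT mean (log2 fold change 0.90, SE 0.20, edgeR adjusted p = 0.400). Of the exonic bases of Hoxb2 and Hoxb3, 27.3% and 52.9% overlap the antisense RNA Hoxb3os, so reads there cannot be told apart. Hoxb6, expressed in lateral plate mesoderm, measured 5.91 and 3.30 CPM in WT against 8.63 CPM in each Prx-cKO library (0.93, SE 0.36, edgeR adjusted p = 0.475). Hoxb4 was at 12.1 and 5.70 CPM (WT) and 17.7 and 17.2 CPM (Prx-cKO) (0.98, SE 0.39, edgeR adjusted p = 0.477). For both, the Prx-cKO libraries lay close together and the WT libraries lay apart, with WT replicate 2 the lowest of the 4. Hoxb8 measured 2.76 and 1.18 CPM in WT against 6.64 and 3.41 CPM in Prx-cKO (1.37, SE 0.57), and Hoxb1, at 0.0472 and 0.265 CPM in WT and 0.348 and 0.685 CPM in Prx-cKO, was too low for a firm ratio. In all, 7 of the 9 were above WT in both Prx-cKO libraries (22.2% of all genes), and Hoxb7 and Hoxb9 overlapped. Hoxb9 was the only member numbered 9 to 13 with a positive log2 fold change (0.77, SE 0.44), which rested on Prx-cKO replicate 2: its values were 3.99 and 4.24 CPM in WT and 4.21 and 9.59 CPM in Prx-cKO, and without that library the log2 fold change was 0.03.

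None of the 9 HoxC members had an unadjusted p under 0.05 in edgeR, but their signs also followed position. All 5 numbered 9 to 13 were lower, with a median of −0.24. Leaving out 1 library put that median between −0.41 and −0.09. Of the 4 numbered 1 to 8, 3 were higher, with a median of 0.45. Hoxc6 was at 29.1 and 18.8 CPM (WT) and 39.7 and 26.9 CPM (Prx-cKO) (log2 fold change 0.48, SE 0.31, edgeR adjusted p = 0.629), with overlapping groups. Hoxc10 measured 3.19 and 2.80 CPM in WT against 1.98 and 2.31 CPM in Prx-cKO. Hoxc11, like Hoxc10 known mainly from the hindlimb, measured 2.81 and 2.98 CPM in WT against 2.64 and 1.27 CPM in Prx-cKO. Neither pair overlapped (−0.46, SE 0.34, and −0.63, SE 0.46, with edgeR adjusted p of 0.675 and 0.667). The Hoxc11 difference rested on Prx-cKO replicate 2: without that library the log2 fold change was −0.13, and without replicate 1 it was −1.18. Hoxc13, a skin and hair gene, measured 7.77 and 9.93 CPM in WT against 8.35 and 8.61 CPM in Prx-cKO, with a difference of −0.07 on the log2 scale (SE 0.25, edgeR adjusted p = 0.944). Of the 3 measured group 13 members, then, Hoxd13 and Hoxa13 were lower without overlap and Hoxc13 overlapped. By cluster the medians were −0.02 for HoxA, 0.90 for HoxB, −0.13 for HoxC and −0.40 for HoxD.

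Summed over the 39 genes, Hox transcripts made up 1612 and 1807 CPM in WT and 1171 and 1248 CPM in Prx-cKO. HoxA and HoxD members numbered 9 to 13 accounted for 1179 and 1528 CPM in WT and for 670 and 820 CPM in Prx-cKO. Members numbered 1 to 8 summed to 411 and 254 CPM (WT) and 477 and 403 CPM (Prx-cKO), so the groups overlapped there. HoxB alone summed to 96.6 and 58.1 CPM in WT, and to 132 and 129 CPM in Prx-cKO. As a share of all Hox CPM, members numbered 9 to 13 held 74.5% and 86.0% in WT and 59.2% and 67.7% in Prx-cKO. In bulk tissue, fewer cells of a kind and less RNA per cell cannot be told apart.

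The WT libraries differed from each other along the same axis as the groups. Of the 23 members numbered 1 to 8, 20 were lower in WT replicate 2 than in WT replicate 1, with a median log2 difference of −0.64. Of the 9 HoxA and HoxD members numbered 9 to 13, 8 were higher in WT replicate 2, with a median of 0.46. Over all genes the median was 0.00. The same libraries differed in proximal limb genes: Meis1, which marks the upper arm, stood at 40.0 CPM in WT replicate 1 and 26.7 CPM in WT replicate 2, and Irx3 at 42.1 and 19.5 CPM. In Prx-cKO Meis1 stood at 51.4 and 52.5 CPM and Irx3 at 53.1 and 47.6 CPM. Between the Prx-cKO libraries, 15 of the 23 members numbered 1 to 8 were lower in replicate 2, with a median log2 difference of −0.08. Of the 9 HoxA and HoxD members numbered 9 to 13, 1 was lower there, with a median of 0.30. The part that the content of proximal limb plays in the Hox differences was not tested.

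Leaving out either WT library therefore moved the values. Without WT replicate 1, edgeR called 603 of 21256 genes (2.84%), among them 9 Hox genes: Hoxa9, Hoxa10, Hoxa13, Hoxd10, Hoxd11 and Hoxd13 lower, and Hoxb3, Hoxb4 and Hoxb5 higher. Without WT replicate 2 it called 104 of 20516 genes (0.507%), of which 1, Hoxd10, was a Hox gene (log2 fold change −1.13, edgeR adjusted p = 0.0498). Each of these fits leaves WT with 1 library, whose spread is assumed to be that of Prx-cKO, and without either Prx-cKO library no gene was called. Over all 11 alternatives, the edgeR or DESeq2 adjusted p of Hoxd10 ranged from 1.776e-06 to 0.9998 and its log2 fold change from −1.26 to −1.07. Most other members moved more. Without WT replicate 2 the log2 fold change was −0.23 for Hoxa13, −0.33 for Hoxa11, −0.39 for Hoxd11, −0.07 for Hoxd12, 0.53 for Hoxb4, 0.555 for Hoxb6 and 0.84 for Hoxb8. Without WT replicate 1 it was −0.92 for Hoxa13 and 1.58 for Hoxb4. Without Prx-cKO replicate 1 it was −0.35 for Hoxa11, −0.21 for Hoxd9 and 0.18 for Hoxc6. The median of the HoxA and HoxD members numbered 9 to 13 was −0.95 and −0.53 when the first or the second WT library was dropped, and −0.50 and −0.97 when the first or the second Prx-cKO library was. For members numbered 1 to 8 the median was 0.995 and 0.23 on dropping the first or the second WT library, and for HoxB it was 1.117 and 0.555. DESeq2 called 393 of 19987 genes (1.97%), 4 of them Hox genes: Hoxd10 (DESeq2 adjusted p = 1.776e-06), Hoxd13 (2.933e-05), Hoxa9 (0.004491) and Hoxb2 (0.01859).

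**Figure D3:**
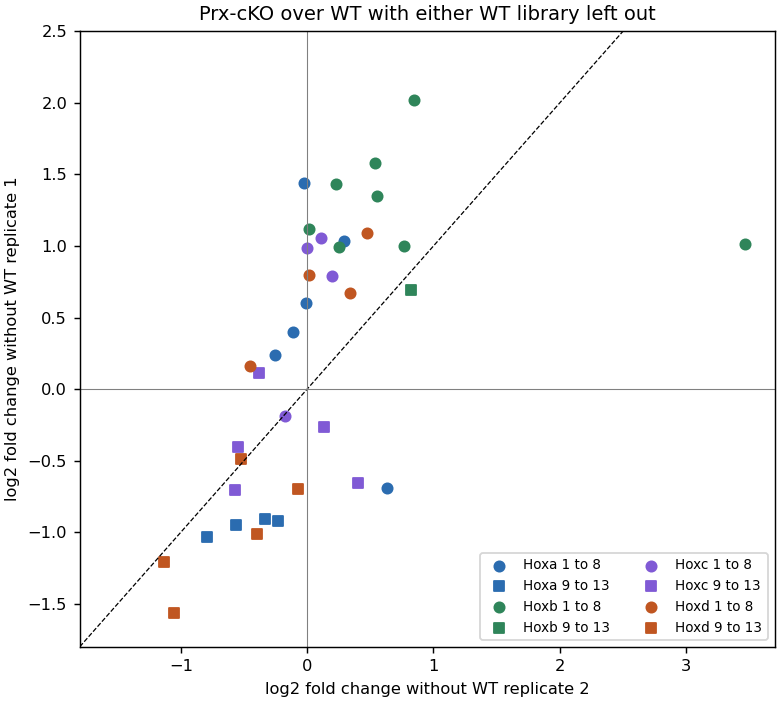
Log2 fold change of Prx-cKO over WT for Hox genes without WT replicate 2 (horizontal) and without WT replicate 1 (vertical), with a dashed line of equal values, circles for paralogs 1 to 8 and squares for paralogs 9 to 13, coloured by cluster. Hoxd13 and Hoxd10 are the lowest squares on both axes, while many circles lie near 0 on the horizontal axis and near 1 on the vertical one, as the medians of 0.23 and 0.995 show.

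Neighbouring genes were read beside the clusters, and how far along the chromosome the pattern runs was not tested. Next to Hoxd13 lie Evx2 and Lnpk, which share limb enhancers with the 5′ HoxD genes. Evx2 was at 34.7 and 56.7 CPM (WT) and 23.8 and 20.7 CPM (Prx-cKO) (log2 fold change −1.04, SE 0.28, edgeR adjusted p = 0.426). Lnpk measured 41.2 and 55.9 CPM in WT against 31.5 and 31.1 CPM in Prx-cKO (−0.64, SE 0.20, edgeR adjusted p = 0.452). Atp5g3, further out, was at 339 and 237 CPM (WT) and 441 and 499 CPM (Prx-cKO) (0.71, edgeR adjusted p = 0.445). At the matching end of HoxA the sign was opposite: Evx1, beside Hoxa13, measured 9.95 and 8.99 CPM in WT against 16.6 and 24.7 CPM in Prx-cKO (1.13, SE 0.27, edgeR adjusted p = 0.414). None of these groups overlapped. Of the 6 genes flanking HoxA and the 6 flanking HoxD, 2 and 3 had an unadjusted p under 0.05, among them Jazf1 on the HoxA side (−1.19), and Skap2 stood at 0.33. HoxB and HoxC are flanked by paralogs of Atp5g3, which also encode a subunit of mitochondrial ATP synthase. Atp5g1 beside HoxB had a log2 fold change of 0.74 (edgeR adjusted p = 0.400) and Atp5g2 beside HoxC one of 0.72 (edgeR adjusted p = 0.402). The other flanking genes of smallest p, Cbx1 (−0.24) and Snx11 (0.22) at HoxB and Smug1 (0.23) and Calcoco1 (−0.15) at HoxC, had unadjusted p above 0.05, and Calcoco2 had no count.

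A list of named non-coding genes in and beside the clusters gave mixed differences. Of 11 found, 9 were measured, and 2 (Hoxa11os and Hottip) had an unadjusted p under 0.05, both lower. Hoxa11os, antisense to Hoxa11, was at 162 and 198 CPM (WT) and 91.2 and 108 CPM (Prx-cKO) (log2 fold change −0.86, SE 0.18, edgeR adjusted p = 0.386). Hottip, at the Hoxa13 end, measured 17.6 and 15.0 CPM in WT against 9.67 and 6.97 CPM in Prx-cKO (−0.98, SE 0.26, edgeR adjusted p = 0.426). Hotairm1, at the opposite end of the cluster, was at 3.28 and 1.71 CPM (WT) and 5.08 and 4.84 CPM (Prx-cKO) (1.02, SE 0.41, edgeR adjusted p = 0.479). For all 3 the groups were separate, though Hotairm1 did not reach an unadjusted p under 0.05. In HoxD, Haglr (−0.02) and Hoxd3os1 (−0.16) had overlapping groups. Of 20 other measured genes annotated inside the clusters, most of them short or non-coding, 3 were higher and 2 lower at an unadjusted p under 0.05, and the median was −0.26. The higher ones were Gm27861 in HoxA and Mir196a-1 and Gm53 in HoxB, and the lower ones were Gm27817 and 9530018H14Rik in the 5′ part of HoxA, all named after their values were seen. Gm27861 rested on 1 count in each WT library against 18 and 25 counts in Prx-cKO. Gm27492, which lies within Hoxa11os, was at 4.54 and 0.251 CPM (WT) and 14.8 and 0.196 CPM (Prx-cKO), so its replicates differed far more than its groups.

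**Figure D4:**
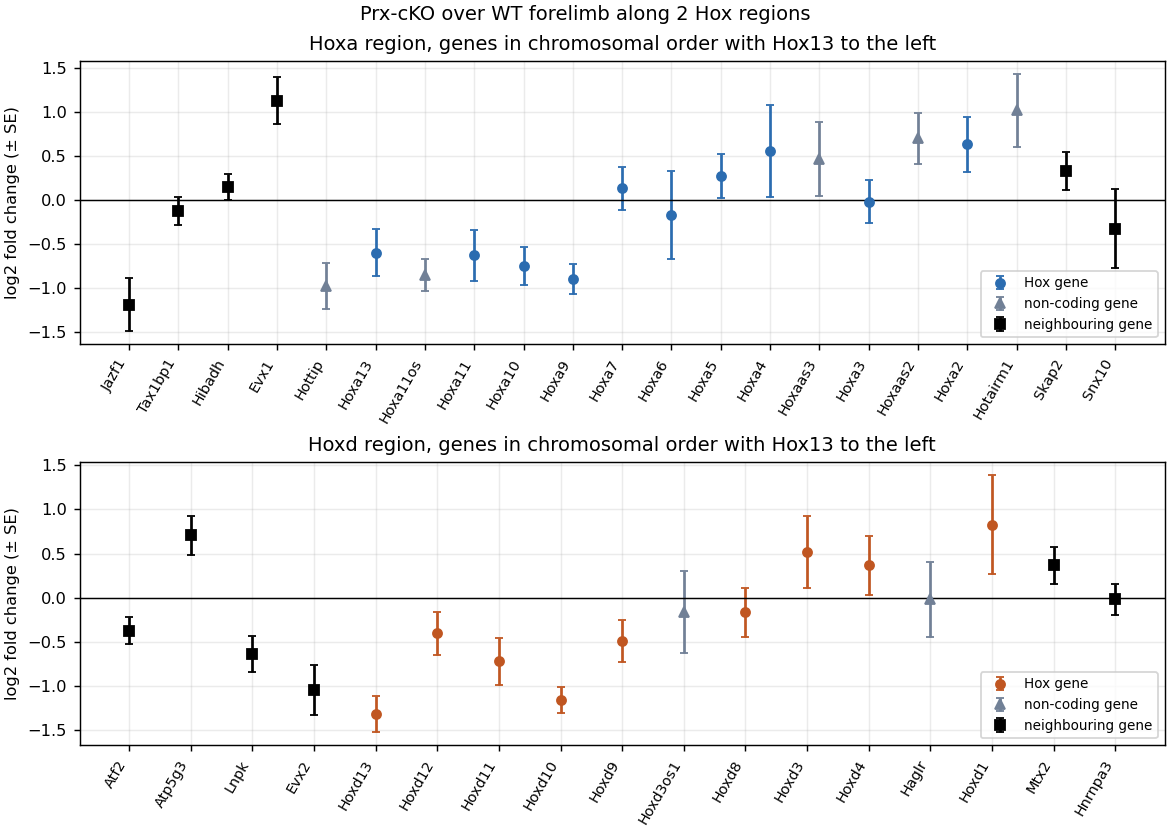
Log2 fold change of Prx-cKO over WT with bars of 1 SE for Hox genes and the listed non-coding and neighbouring genes of the HoxA and HoxD regions, evenly spaced in chromosomal order with the Hox13 end to the left; circles are Hox genes, triangles non-coding genes and squares neighbours. From Hottip to Hoxa9 and from Lnpk to Hoxd9 the plotted values lie below 0, and Evx1, next to Hottip, lies at 1.13.

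Genes that act with or upstream of Hox genes were read from lists drawn up from general knowledge. Of 9 cofactors of the Pbx, Meis and Pknox families, which bind DNA together with Hox proteins, 1 (Meis1, log2 fold change 0.64, edgeR adjusted p = 0.470) had an unadjusted p under 0.05, and the median was 0.16. The next by p were Meis2 (0.38) and Meis3 (0.57). Of 13 measured genes of retinoid supply and breakdown and other cluster inputs, 1 was higher and 2 lower at that level. Crabp1, a retinoic acid binding protein, measured 195 and 129 CPM in WT against 288 and 323 CPM in Prx-cKO. Cyp26b1, which degrades retinoic acid in the distal limb, was at 176 and 197 CPM (WT) and 98.6 and 134 CPM (Prx-cKO). Gdf11, a signal that promotes 5′ Hox expression in the trunk, had a log2 fold change of −0.51, and Cdx4 had no count in any library. A list of 24 genes held Polycomb and Trithorax genes, which keep Hox clusters silent or active, with Ctcf and Zbtb16 as further regulators. Of these 24, 1 was higher (Men1, 0.93) and 2 lower (Jarid2, −0.54, and Suz12, −0.90) at an unadjusted p under 0.05, with a median of −0.17. None of these genes passed at an adjusted p under 0.05.

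Among 14 genes known as targets or partners of limb Hox proteins, 7 were lower and 2 higher at an unadjusted p under 0.05, and the median was −0.56. Gdf5, a joint gene, measured 26.2 and 36.8 CPM in WT against 7.41 and 5.56 CPM in Prx-cKO (log2 fold change −2.29, SE 0.28, edgeR adjusted p = 0.320). Tbx5, which starts the forelimb, was at 160 and 199 CPM (WT) and 97.0 and 91.2 CPM (Prx-cKO) (−0.93, SE 0.17, edgeR adjusted p = 0.340). Ihh, a cartilage signal, measured 1.51 and 2.22 CPM in WT against 0.417 and 0.235 CPM in Prx-cKO (−2.63, edgeR adjusted p = 0.386). Against that direction, Shh, the posterior limb signal that 5′ HoxD proteins help to switch on, was at 1.94 and 0.780 CPM (WT) and 3.30 and 6.71 CPM (Prx-cKO) (1.98, SE 0.60, edgeR adjusted p = 0.444). Each of these 4 separated the groups.

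Other limb region genes gave the following. In the anterior list Pax9 was lower at an unadjusted p under 0.05 (log2 fold change −2.40), and Gli3 stood at −0.55. In the posterior list Hand2 was lower (−0.57), Shh higher (1.98) and Tbx3 at −0.34. The proximal list of 5 had a median of 0.43, with Meis1, Irx3 (0.71) and Meis2 smallest in p and only Meis1 at an unadjusted p under 0.05. Of 8 genes of the apical ridge, the signalling edge of the bud, Fgf8 was higher (0.89) and Dlx6 lower (−1.06) at that level, and Sp8 stood at 0.51. None passed edgeR's test after adjustment.

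Marker sums of several cell types differed with genotype beside the Hox values. The 10 limb mesenchyme markers summed to 1494 and 1682 CPM (WT) and 1145 and 1218 CPM (Prx-cKO), and 4 of the 10 were lower at an unadjusted p under 0.05, among them Lhx9 (log2 fold change −1.17), Lmx1b (−1.02) and Prrx1 (−0.84). The 10 cartilage markers summed to 1046 and 1157 CPM (WT) and 465 and 379 CPM (Prx-cKO), and 9 of 10 were lower at that level. A list of 9 skeletal muscle markers summed to 321 and 329 CPM (WT) and 895 and 435 CPM (Prx-cKO). The 10 macrophage markers summed to 50.1 and 53.4 CPM (WT) and 103 and 97.2 CPM (Prx-cKO). Of the muscle and macrophage markers, 7 and 6 were higher at that level, and no defining marker of these 4 lists was at 0 in all libraries. Their part in the Hox differences was not tested. Of 7 endothelial markers 3 were higher, and of 9 surface ectoderm, 8 erythroid and 7 nerve markers none reached that level. Dcstamp (osteoclast), Ly6g (neutrophil) and Ms4a1 (B cell) had no count in any forelimb library.

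In the cultures the question was which members are expressed and whether genotype or R40D3 alters them. Hox transcripts were scarce there: the 39 members summed to 12.2 to 23.1 CPM per library, against 1171 to 1807 CPM in the forelimb. HoxD was nearly silent, with 8 of its 9 members at 0 in all 8 libraries and 13 counts of Hoxd8 in all. In all, 11 members had no count in any culture library (8 in HoxD, and Hoxb1, Hoxb8 and Hoxb13), and 16 had counts in all 8. A count of 0 in a library of 16009146 counts allows up to 3 counts, for counting error only. Of the 39, 13 passed the filter on low counts: 6 HoxA, 2 HoxB and 5 HoxC members.

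Per kilobase of exon Hoxb4 led, with a mean of 2.49 CPM per kb over the 8 libraries against 3.47 in WT forelimb. It was followed by Hoxc10 at 0.958 and Hoxa10 at 0.443 CPM per kb. Below these, Hoxa4 (0.376), Hoxc11 (0.343), Hoxa7 (0.327) and Hoxc9 (0.274) followed closely, and their order is within the spread of these low counts. In WT forelimb Hoxa10, at 66.2 CPM per kb, lay far above Hoxb4, and Hoxc10, at 1.57 CPM per kb, lay below it. The levels per kb of the cultures and the forelimb were normalised separately, so they are set side by side without a test.

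Hoxb4, which promotes the self-renewal of blood stem cells, was the only member above 4 CPM in every culture library. It stood at 4.89 and 4.54 CPM in WT R0D3 and at 7.37 and 9.16 CPM in WT R40D3. In LysM-cKO it stood at 7.19 and 5.09 CPM in R0D3 and at 5.82 and 7.02 CPM in R40D3. Both WT R40D3 libraries were above both WT R0D3 libraries, and in LysM-cKO the groups overlapped. The WT difference was 0.80 on the log2 scale (SE 0.23) with an edgeR adjusted p of 0.0546, just short of the threshold, in a contrast that called 2367 of 14030 genes (16.9%). With the replicate number as a block, which pairs these cultures, Hoxb4 passed (edgeR adjusted p = 0.0323, 28.3% of genes called), and over all alternatives its adjusted p ranged from 0.0323 to 0.332. In LysM-cKO the difference was 0.06 (SE 0.23, edgeR adjusted p = 0.921). The interaction, which compares the 2 genotypes directly, was −0.75 (SE 0.33, edgeR adjusted p = 0.9999), so the genotypes were not shown to differ. Without any single WT library the edgeR adjusted p was between 0.09053 and 0.332.

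Hoxa10, a gene of myeloid progenitors, stood at 2.04 and 1.99 CPM in WT R0D3, at 1.67 and 1.03 CPM in LysM-cKO R0D3, at 1.57 and 2.08 CPM in WT R40D3 and at 0.846 and 0.370 CPM in LysM-cKO R40D3. The LysM-cKO libraries were below the WT libraries in each culture, and replicate 2 was the lower LysM-cKO library. At R40D3 the difference was −1.52 on the log2 scale (SE 0.45, edgeR adjusted p = 0.648), and at R0D3 it was −0.57 (SE 0.38, edgeR adjusted p = 0.997). A list of 9 haematopoietic progenitor markers summed to 16.7 and 11.4 CPM (WT) and 9.54 and 7.88 CPM (LysM-cKO) in R0D3. In R40D3 it summed to 23.6 and 10.6 CPM (WT) and 9.10 and 8.07 CPM (LysM-cKO). The part of such cells in the Hoxa10 values was not tested. The genotype contrasts called 2 of 14030 genes each (0.0143%) and no Hox gene. At an unadjusted p under 0.05 they held 1048 genes (7.47%) with 1 Hox gene at R40D3, and 620 genes (4.42%) with 1 Hox gene at R0D3.

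The Hox gene at R0D3 was Hoxc10. It stood at 3.55 and 2.49 CPM in WT R0D3, at 1.84 and 0.485 CPM in LysM-cKO R0D3, at 2.30 and 1.40 CPM in WT R40D3 and at 1.64 and 0.924 CPM in LysM-cKO R40D3. The R0D3 groups did not overlap (a log2 difference of −1.36 with SE 0.54, edgeR adjusted p = 0.997), whereas the R40D3 groups did. Its lowest values fell in the replicate 2 libraries of LysM-cKO, and so did those of the whole cluster. HoxC members summed to 1.46 CPM there in R0D3 and 2.28 CPM in R40D3, and to 4.18 to 7.52 CPM in the other 6 libraries. In the same 2 libraries 11 stromal fibroblast markers summed to 529 and 433 CPM, against 1277 to 1658 CPM in the other 6, with no marker at 0 in all libraries. The part of these cells in the HoxC or Hoxa10 values was not tested.

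Hoxa7, Hoxa9 and Hoxb3 also reached a group mean of at least 1 CPM. Hoxa7 stood at 1.34 and 1.37 CPM in WT R0D3, 1.21 and 0.728 in LysM-cKO R0D3, 0.837 and 1.04 in WT R40D3 and 0.582 and 0.431 in LysM-cKO R40D3. Its LysM-cKO values were below the WT values in each culture (log2 fold change −0.85, SE 0.45, edgeR adjusted p = 0.661 at R40D3). Here too replicate 2 was the lower LysM-cKO library. Hoxa9, a leukaemia-associated progenitor gene, ran from 0.424 to 1.53 CPM over the 8 libraries and Hoxb3 from 0.550 to 1.49 CPM. In the genotype contrasts the edgeR adjusted p of Hoxa9 and Hoxb3 ran from 0.916 to 0.997.

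**Figure D5:**
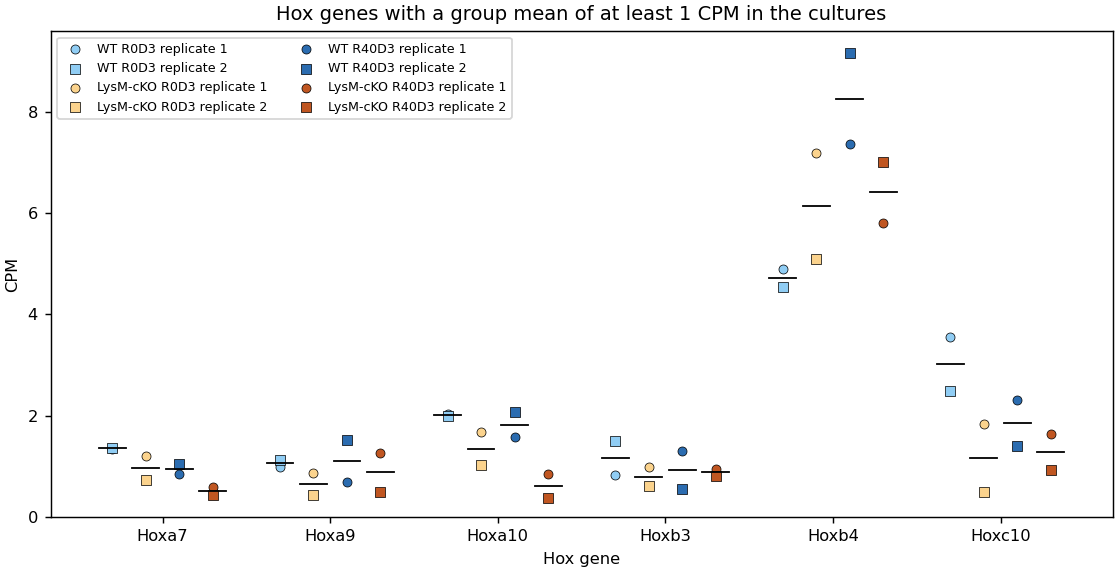
CPM of 6 Hox genes with a group mean of at least 1 CPM in the cultures, with 1 point per library (circle replicate 1, square replicate 2), coloured by group, and a line at each group mean. Hoxb4 lies between 4.54 and 9.16 CPM, and the other 5 genes lie at or below 3.55 CPM.

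R40D3 against R0D3 called 1422 of 14030 genes (10.1%) in LysM-cKO, and no Hox gene in either genotype. At an unadjusted p under 0.05 it held 30.3% of all genes and 1 Hox gene, Hoxb4, in WT, and 24% of all genes and 0 Hox genes in LysM-cKO. The median over the 13 measured members is not read further, since most rest on few counts. Of the interaction, 0 of 14030 genes were called by edgeR (0%), 248 (1.77%) had an unadjusted p under 0.05, and 0 of the 13 Hox genes did. Osteoclast markers, by contrast, passed the test in 11 of 11 cases in both genotypes, with medians of 9.02 in WT and 8.33 in LysM-cKO on the log2 scale. Hox cofactors were more abundant than the Hox genes themselves: 9 summed to 137 to 150 CPM per library, led by Pbx2 at 72.4 to 86.4 CPM.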

How the data were processed

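The values are the authors' deposited raw counts of reads by Ensembl identifier, in a table of the 4 forelimb libraries and separate tables for cultures numbered 1 and 2. Per the labels' protocols, TRIzol RNA went into a kit for mRNA libraries. The submitters' processing notes name FastQC 0.11.2, Trimmomatic 0.36, HISAT2 2.1.0, DESeq2 1.12.4 and the build GRCm38; counter, gene models and strand setting are not given in the sources used here. Overlapping and antisense genes are therefore uncertain: 14 of the 39 members share at least 5% of their exonic bases with another gene of GENCODE M21.

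Counts were tested as deposited with edgeR 4.0.16 (filterByExpr, TMM, quasi-likelihood with legacy = FALSE, two-sided, Benjamini-Hochberg over all genes tested, calls under 0.05), the forelimb libraries alone and the 8 cultures together. The pipeline was also run on simulated counts drawn without an effect of replicate number, so that run does not show its power in these data. CPM use TMM-scaled library sizes. The alternatives were DESeq2 1.42.0, other scalings and filters, the replicate number as a block, only the groups compared, and each library left out. Same-numbered cultures deviated together (r from 0.343 to 0.609 over 6 pairs of groups). The numbers were taken to pair them in the block alternative only.

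Full values are given for members with an unadjusted p under 0.05 in the forelimb (in clusters with fewer than 3, the 3 of smallest p), for group 11 and 13 members, for members with a group mean of at least 1 CPM in the cultures, and up to 3 genes of smallest p per context list; Hoxb1, Hoxb8, Hoxb9, Hoxd9, Hoxd12 and Hoxa7 in the forelimb were added after their values were seen. Some genes that the rule would name are not reported here, and counts, sums and medians over lists include them. Members and lists were chosen with earlier results of these data known.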

Additional observations from a re-analysis of the deposited data

How the results depend on the processing

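The counting depth limits the cultures, where only 13 of the 39 members could be tested, and each group has 2 libraries. Settings that leave out libraries or members hold fewer samples or genes; for the others the cause was not tested. In the forelimb DESeq2 called 393 genes and 4 Hox genes, against 0 and 0 with edgeR. Of the forelimb members given with full statistics, Hoxc13 was the only one that an alternative reversed. Leaving out 1 library also turned the sign of Hoxa3 (to 0.24), Hoxa6 (to 0.63), Hoxd8 (to 0.16) and Hoxa7 (to −0.12), and of some members not described singly. The median over all 38 Hox genes was 0.19 and became −0.10 when only members with under 5% shared exonic bases were kept, a smaller set of members. In that set the HoxA median went from −0.02 to −0.60. It held 4 members with an unadjusted p under 0.05, against 7 in the full set (10.5% of all genes). Forelimb replicate numbers were not taken to pair the libraries (r = 0.261 for the single pair of groups). The lowest r of the cultures was 0.343, and the main fits used no block in either tissue. With the number as a replicate block, 0 forelimb genes and 0 Hox genes were called, and 16 Hox genes had an unadjusted p under 0.05 (12.9% of all genes) against 7 without it.

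With each forelimb library left out in turn, the called genes ranged from 0 to 603, the called Hox genes from 0 to 9, the median of members numbered 1 to 8 from 0.23 to 0.995 and that of HoxA and HoxD members numbered 9 to 13 from −0.97 to −0.50. The HoxA median ranged from −0.12 to 0.15, the HoxC median from −0.27 to 0.21 and Hoxc13 from −0.26 to 0.13.

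In the cultures, LysM-cKO against WT at R40D3 called 2 genes, and 19 with DESeq2, 0 with library size alone, 30 with the replicate block and 0 in a fit of only the groups compared. At R0D3 the counts were 2, 7 with DESeq2 and 0 in a fit of only the groups compared. R40D3 against R0D3 in WT called 3977 genes with the replicate block, and 1 Hox gene, Hoxb4, with the block, with a mean of at least 1 CPM and in a fit of only the groups compared. In LysM-cKO it called 2983 genes with the block and 533 in a fit of only the groups compared, and the median of the measured members went from −0.46 to 0.062 with a mean of at least 1 CPM and to 0.11 in that fit. Without the low-count filter Hoxa9 in WT was at −0.012. The block changed the call of no other Hox gene.

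With each culture library left out in turn, 0 genes were called for genotype at R40D3 and 0 at R0D3, 689 to 1699 for R40D3 against R0D3 in WT and 399 to 1317 in LysM-cKO. Changes of sign occurred for members at low counts. For genotype at R40D3, Hoxa9 ranged from −1.09 to 0.42 and Hoxb3 from −0.55 to 0.67. For R40D3 against R0D3 in WT, Hoxa10 ranged from −0.40 to 0.018, Hoxa9 from −0.67 to 0.51 and Hoxb3 from −1.07 to 0.22. In LysM-cKO, Hoxa9 ranged from −0.39 to 1.07, Hoxb3 from −0.14 to 0.53, Hoxb4 from −0.16 to 0.32, Hoxc10 from −0.49 to 1.41 and the median from −0.86 to 0.65. For the interaction, Hoxa7 from −0.69 to 0.063, Hoxa9 from −0.39 to 1.13, Hoxb3 from −0.077 to 1.20 and the median from −0.80 to 0.83.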
